A study of Mus musculus with 2 samples.

Results

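Interferon-induced GTPases were followed across the cells of aged hindlimb muscle. The set holds 10 of the 32285 genes in the deposited matrices, namely 6 guanylate-binding proteins (GBPs: Gbp2, Gbp3, Gbp4, Gbp5, Gbp6 and Gbp7) and 4 immunity-related GTPases (IRGs: Igtp, Irgm1, Irgm2 and Iigp1). They were matched by symbol, and each symbol named 1 gene. The genes were chosen by family with earlier values of the same libraries in view, in which Gbp4, Cd274 and Ubd led an endothelial cluster made mostly of vehicle cells. Their level in endothelial cells and its difference between the libraries therefore helped to choose them, and the values of both are given as a description only.

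Both groups were female C57Bl/6J mice at 24 months of age, so that every sample was old and no young muscle was compared. The ATRA+agonist group was injected on 3 days into the tibialis anterior, gastrocnemius and quadriceps with all-trans retinoic acid (ATRA) together with CD3254, an agonist of the retinoid X receptor alpha, and BMS961, an agonist of the retinoic acid receptor gamma. The control group was injected in the same way with the solvent alone (DMSO vehicle). Quadriceps and gastrocnemius were digested, and sorted cells were profiled by droplet-based 3-prime single-cell RNA-Seq. Each library holds cells from 2 mice, and there was 1 library per group. The mice of a library could not be separated, and an effect of treatment, a difference between animals and a difference between library preparations cannot be told apart.

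GBPs and IRGs are large GTPases that cells make in response to interferons, above all interferon-gamma. They gather on the membranes around intracellular bacteria and parasites and help to destroy these compartments. Among the IRGs, Irgm1, Irgm2 and Igtp (also called Irgm3) are regulators that protect the cell's own membranes, and Iigp1 (also called Irga6) is an effector that the regulators keep inactive.

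All 10 genes are protein-coding in GENCODE M21 (build GRCm38). Gbp5, Gbp7, Gbp3 and Gbp2 lie in this order on chromosome 3 between 142493978 and 142638008, with the family gene Gbp2b between Gbp3 and Gbp2. Gbp4 and Gbp6 lie on chromosome 5 between 105115767 and 105293698. Irgm1 is on chromosome 11 from 48861968 to 48871683, Igtp on the same chromosome from 58199556 to 58207591, and Irgm2 from 58199618 to 58222782. Iigp1 spans 60376027 to 60392634 on chromosome 18. The gene models of Igtp and Irgm2 overlap on the same strand, and that of Gbp4 overlaps those of Gbp8 and Gbp9, so that reads from shared parts cannot be assigned. Of the 411 windows of 90 bases in the last 500 bases of the longest Gbp6 transcript, 269 (65.5%) also occur in a transcript of Gbp10 or of the model Gm43302, which makes the split of reads between Gbp6 and Gbp10 uncertain. None of the 411 windows of any of the other 9 members occurs in the transcripts of the 279 family and neighboring genes searched.

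The start sites of the members were read for the motifs that interferon-activated factors bind. RefSeq promoter windows (build GRCm38.p6) of 250 bases before to 50 after the start were at hand for 7 of the 10 genes, with 8 windows in all since Gbp3 has a pair of starts. Gbp4, Gbp6 and Iigp1 had none. The core of the interferon-stimulated response element (ISRE), GAAANNGAAA on either strand, is in a window of 7 of these 7 genes (7 of 8 windows), compared with 3.99% of all genes with a window and 3.44% of all 32851 windows. The core of the gamma-activated site (GAS), TTCNNNGAA, is in the window of 4 of the 7 (Gbp5, Gbp7, Igtp and Irgm2), compared with 9.55% of all genes and 8.3% of all windows. A match is a description of letters and not a measured binding site.

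The stretches around the ISRE core are shown because the genes that carry them are those whose levels are compared below. They are written 5-prime to 3-prime on the strand of the gene, in lower case with the ISRE and GAS cores in capitals. For Igtp (chr11:58199432-58199541, plus strand), Irgm2 (chr11:58214823-58214932, plus strand) and Gbp7 (chr3:142530193-142530302, plus strand), where no annotated exon overlaps the bases before the start, 110 bases are given:
Igtp: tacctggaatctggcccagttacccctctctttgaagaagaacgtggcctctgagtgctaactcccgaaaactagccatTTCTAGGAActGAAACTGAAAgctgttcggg
Irgm2: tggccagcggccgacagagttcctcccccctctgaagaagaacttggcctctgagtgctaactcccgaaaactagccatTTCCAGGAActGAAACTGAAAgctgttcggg
Gbp7: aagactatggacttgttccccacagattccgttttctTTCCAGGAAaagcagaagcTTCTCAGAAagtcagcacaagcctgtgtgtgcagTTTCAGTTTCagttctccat

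The Igtp and Irgm2 stretches are identical at 92 of 110 positions without gaps and at 59 of the last 60, and both hold a GAS core directly before the ISRE core. For the other 4 genes 30 bases are given. They are Gbp2 (chr3:142620594-142620623, plus strand), Gbp3 (chr3:142559992-142560021, plus strand), Gbp5 (chr3:142496759-142496788, plus strand) and Irgm1 (chr11:48871428-48871457, minus strand):
Gbp2: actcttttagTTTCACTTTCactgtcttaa
Gbp3: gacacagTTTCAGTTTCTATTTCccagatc
Gbp5: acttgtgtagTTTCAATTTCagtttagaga
Irgm1: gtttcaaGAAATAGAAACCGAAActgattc

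In Gbp3 and Irgm1 a pair of ISRE cores overlaps, so that the capitals there cover both.

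The libraries held 65197625 unique molecular identifiers (UMIs, 1 per captured transcript) over 10444 barcodes for ATRA+agonist and 109343486 over 17394 barcodes for DMSO vehicle. After filtering, 6907 and 6953 cells remained, with medians of 4694 and 4847 UMIs, and 9 barcode sequences occurred in both libraries among them. Cells were clustered without the 81 interferon genes of the lists used here and named from markers, and 7 classes had at least 100 cells in each library. Interferon-responsive genes outside these lists were not left out. They were endothelial-like, fibro-adipogenic progenitor (FAP)-like, muscle stem cell (MuSC)-like, tenocyte-like, smooth muscle or pericyte-like, neural (glial)-like and monocyte or macrophage-like cells. The 5 endothelial-like clusters had between 7 and 9 of 9 endothelial markers enriched. A level (CPM) is the count of a gene per 1000000 UMIs of a class in a library, and its 95% interval is exact Poisson. A ratio divides the ATRA+agonist level by the vehicle level and is given as log2, with an exact conditional 95% interval. All intervals cover counting error only, and with 1 library per group no test was possible. UMIs were counted at transcript ends and were not scaled by length, and capture can differ between genes, so levels of different genes are compared only roughly.

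Endothelial-like cells held the highest levels of most of the GTPase genes among the 7 classes compared. Since an endothelial lead of Gbp4 helped to choose the members, this order is a description only. They ranked first for 9 of the 10 members in each library, with counting intervals apart from the next class for 9 members in the vehicle library and 8 in the ATRA+agonist library. How often endothelial-like cells ranked first over all genes was not computed, so these counts cannot be weighed. Gbp4 had the largest lead in them over the next compared class. Its level was 444 CPM in vehicle endothelial-like cells, 41.7 times that of the next class, and 123 CPM in the ATRA+agonist library, 29.9 times the next. In FAP-like cells Gbp4 was at 3.21 CPM in the vehicle library and at 2.73 CPM in the ATRA+agonist library, and in MuSC-like cells it was counted 3 times and 1 time. In cells outside the comparison Gbp4 was higher than in these, at 32.9 CPM in neutrophil-like, 23.3 CPM in unnamed and 17.4 CPM in B cell-like cells of the ATRA+agonist library. In the vehicle library it was at 15.5, 17.2 and 12.9 CPM in the same cells, the last from 2 UMIs. These values were above the 10.6 CPM of the next compared class, smooth muscle or pericyte-like cells.

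**Figure D1:**
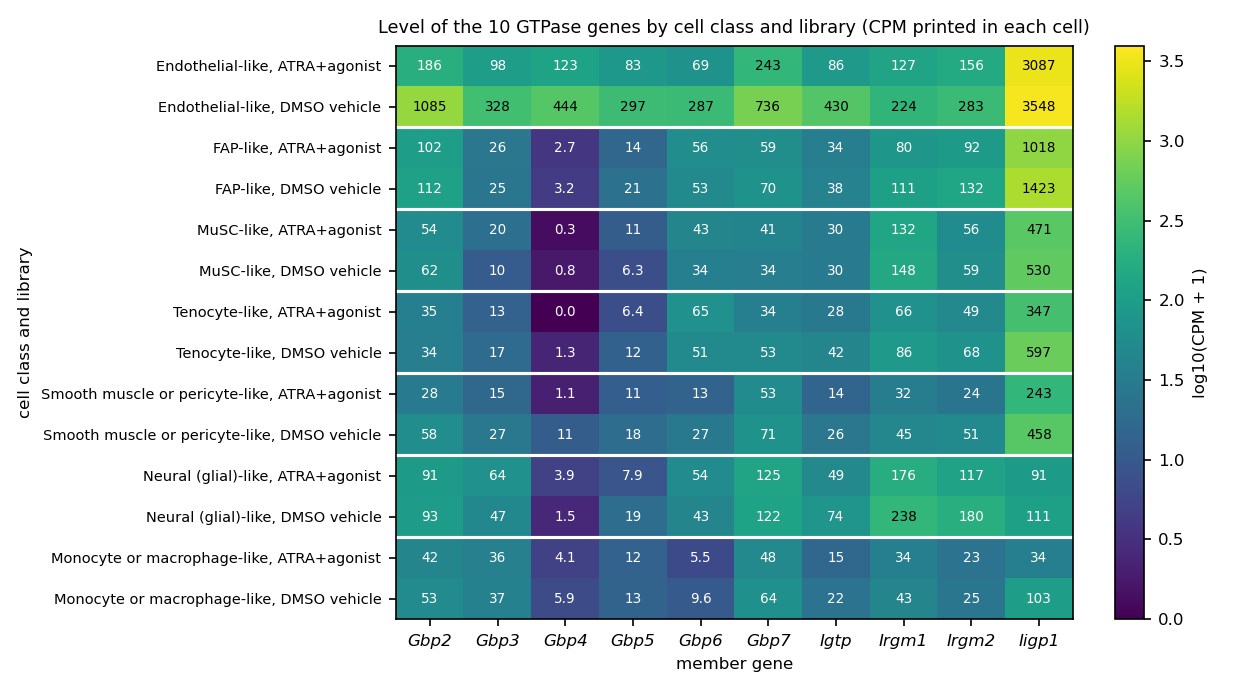
Level of each of the 10 GTPase genes (columns) in each of the 7 cell classes and both libraries (rows). Colour is log10(CPM + 1) and the printed number is the CPM. The vehicle endothelial-like row is the brightest for 9 of 10 genes, and Iigp1 is the highest member in endothelial-like, FAP-like, MuSC-like, tenocyte-like and smooth muscle or pericyte-like cells.

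Iigp1, the effector IRG, was by far the most counted member. It reached 3087 CPM in ATRA+agonist and 3548 CPM in vehicle endothelial-like cells, and FAP-like cells followed with 1018 and 1423 CPM. Monocyte or macrophage-like cells were last in both libraries, at 34.4 and 103 CPM. Tenocyte-like and MuSC-like cells stood in opposite order in the libraries, at 347 and 471 CPM with ATRA+agonist and at 597 and 530 CPM with vehicle.

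Irgm1, a regulator, was the exception to the endothelial order. In the vehicle library its level was 238 CPM in neural (glial)-like and 224 CPM in endothelial-like cells, whose counting intervals overlapped. In the ATRA+agonist library it was 176 CPM in neural (glial)-like cells, 132 CPM in MuSC-like cells and 127 CPM in endothelial-like cells, where the neural (glial)-like interval lay above both others and those of MuSC-like and endothelial-like cells overlapped. For Gbp2, which coats parasite vacuoles, FAP-like cells were next after endothelial-like cells among the compared classes, at 102 CPM with ATRA+agonist and 112 CPM with vehicle. Gbp6 in the ATRA+agonist library showed no detectable lead of endothelial-like cells, with 68.5 CPM there and 65.4 CPM in tenocyte-like cells.

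Barcodes with under 300 detected genes were used as a rough and low reading of free RNA. They are not empty droplets. Their median depth was 5675.5 UMIs with ATRA+agonist and 6884.5 with vehicle, above the kept cells' medians of 4694 and 4847. Hemoglobin beta genes made up 58.5% of the UMIs of these barcodes in the ATRA+agonist library and 60.1% in the vehicle library. This lowers the CPM of every other gene there. The 10 members together were at 6.21 CPM over 2428 such barcodes with ATRA+agonist and at 18.1 CPM over 7940 with vehicle. The summed members of every compared class were above these values, with the lowest at 255 CPM in ATRA+agonist and 375 CPM in vehicle monocyte or macrophage-like cells. Since hemoglobin fills most of the total of these barcodes, such a gap could be foreseen. Free RNA in the classes cannot be judged from it. Gbp4 was at 0.458 and 0.832 CPM in the low-gene barcodes, which is near its levels of 0.30 and 0.756 CPM in MuSC-like cells. With 1 and 3 UMIs, Gbp4 was too sparse to be read as made by MuSC-like cells. Hemoglobin lowers the CPM of the low-gene barcodes, so their values do not set its background.

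In endothelial-like cells (2567 in the ATRA+agonist and 2502 in the vehicle library), each of the 6 GBPs was between 3.03 and 5.83 times lower with ATRA+agonist than with vehicle. Gbp2 was at 186 CPM (176 to 196) with ATRA+agonist and at 1085 CPM (1063 to 1107) with vehicle, a log2 ratio of -2.54 (-2.63 to -2.46). Gbp6 was at 68.5 and 287 CPM, a log2 ratio of -2.07 (-2.21 to -1.93), with the uncertain split from Gbp10. Gbp4 was at 123 and 444 CPM, a log2 ratio of -1.85 (-1.96 to -1.75). For these genes the vehicle library was the high one, and the counting intervals of the libraries did not overlap.

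Gbp5, which takes part in inflammasome activation, was at 82.7 CPM with ATRA+agonist and 297 CPM with vehicle, a log2 ratio of -1.85 (-1.98 to -1.72). Gbp3 was at 98.3 and 328 CPM, a log2 ratio of -1.74 (-1.86 to -1.62). Gbp7 had the smallest difference of the GBPs, with 243 and 736 CPM and a log2 ratio of -1.60 (-1.68 to -1.53). The 6 GBPs summed to 801 CPM with ATRA+agonist and 3176 CPM with vehicle, a log2 ratio of -1.99 (-2.03 to -1.95).

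The IRGs were less alike. Igtp, a regulator, differed as much as the GBPs, with 85.9 CPM under ATRA+agonist and 430 CPM under vehicle and a log2 ratio of -2.32 (-2.45 to -2.20). The other regulators differed less. Irgm1 was at 127 and 224 CPM with a log2 ratio of -0.82 (-0.93 to -0.70), and Irgm2 at 156 and 283 CPM with a log2 ratio of -0.86 (-0.97 to -0.76). The intervals of the Igtp and Irgm2 ratios, the pair whose printed stretches share most of their bases, did not overlap. Iigp1 was at 3087 CPM (3047 to 3127) with ATRA+agonist and 3548 CPM (3508 to 3588) with vehicle, a log2 ratio of only -0.20 (-0.23 to -0.18).

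**Figure D2:**
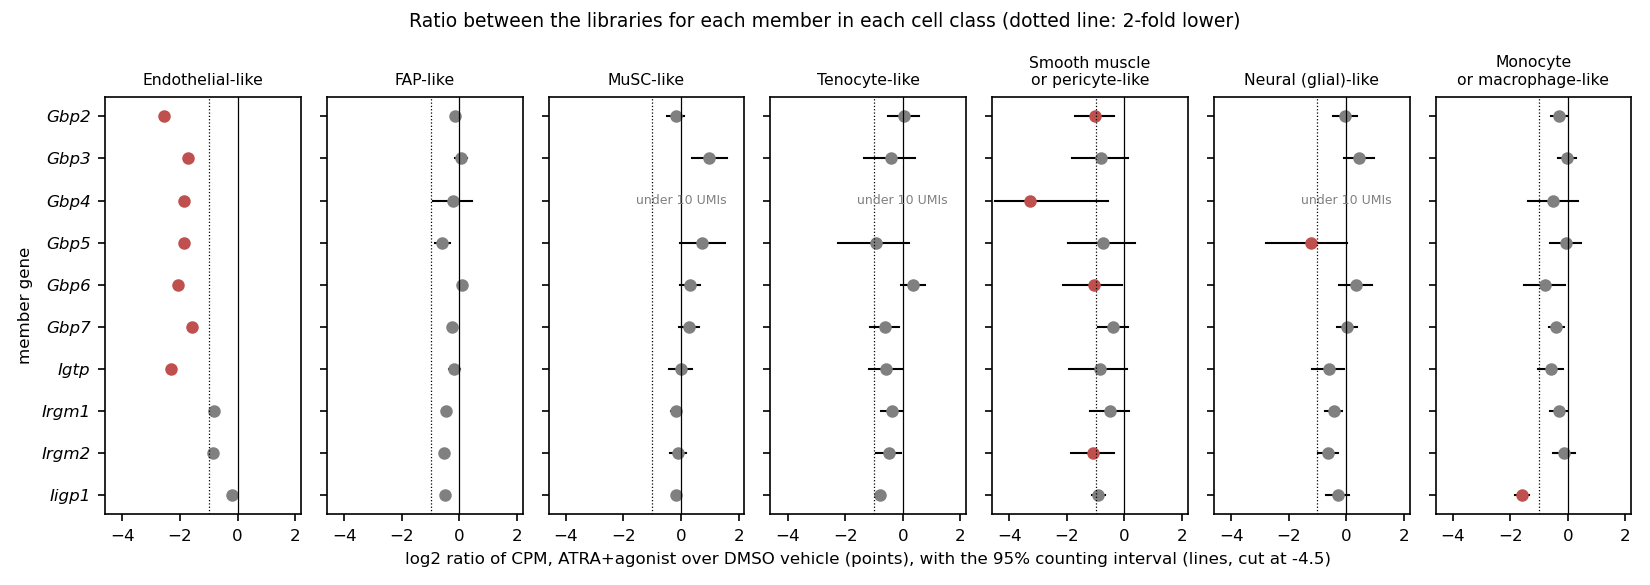
Log2 ratio of CPM, ATRA+agonist over DMSO vehicle, for each member (rows) in the 7 cell classes (panels). Points are ratios, red where at least 2-fold lower, lines are 95% counting intervals (in endothelial-like cells mostly hidden by the points), and the dotted line marks 2-fold lower. In endothelial-like cells 7 of 10 members lie left of the dotted line, and in FAP-like and MuSC-like cells none does.

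Thus 7 of the 10 members were at least 2-fold lower with ATRA+agonist in endothelial-like cells, beside 4.15% of the 14641 genes with at least 10 UMIs there. Since this contrast helped to choose the members, nothing is read from these shares. The median log2 ratio was -1.79 over the members and 0.08 over all these genes. Because Iigp1 was so abundant and differed so little, it made up 72.5% of the member UMIs of endothelial-like cells under ATRA+agonist and 46.3% under vehicle. The sum over all 10 members therefore had a log2 ratio of only -0.85 (-0.87 to -0.83), and the sum without Iigp1 one of -1.81 (-1.85 to -1.78).

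The endothelial markers served to name these cells, so that their level in both libraries is partly set by the naming. These 9 markers summed to 6360 CPM with ATRA+agonist and 5373 CPM with vehicle, a log2 ratio of 0.24 (0.23 to 0.26). Median depth was 2773 and 3184 UMIs per cell, and the median mitochondrial share was 2.85% and 2.33%. Among markers of other cells, the 8 neutrophil markers were lower with ATRA+agonist in these cells (6.61 CPM against 31.6 CPM summed, with 3 of 8 and 0 of 8 at 0), while neutrophil-like cells numbered 23 and 153. The 8 T or NK cell markers were at 13.4 and 11.8 CPM, with 5 and 6 of 8 at 0, and the 8 monocyte or macrophage markers at 27.4 and 24.4 CPM. The summed dendritic markers, which include the interferon-gamma target Ciita, were at 12.8 and 31.6 CPM, the MuSC markers at 35.5 and 91.7 CPM, and the myonuclei markers at 105 and 52.9 CPM. The neural (glial) markers were at 4.72 and 10.4 CPM and the tenocyte markers at 4.45 and 7.43 CPM. The 7 B cell markers summed to 1326 and 1388 CPM, with 2 and 3 of 7 at 0, and the 8 smooth muscle or pericyte markers to 442.9 and 411.5 CPM. Their part in the GTPase values was not tested.

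The lower GBP levels were found in each endothelial cluster. Clustering without the listed interferon genes gave 5 endothelial-like clusters, each with at least 177 cells per library. The 6 GBPs and Igtp were at least 2-fold lower with ATRA+agonist in all 5. The share of all genes past this fold was not computed per cluster, and the contrast helped to choose the members. This count is therefore a description only. Gbp2 ranged from -2.85 to -2.26 across the clusters on the log2 scale and Gbp6 from -3.09 to -1.77. Gbp4 differed most in the cluster led by Ccl21a (-2.31) and least in that led by Timp4 and Gpihbp1, at 103 and 206 CPM. The sum of the GBPs ranged from -2.23 to -1.80.

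The clusters differed more for the IRGs. The arterial-like cluster, led by Stmn2 and Sema3g with 6 of 7 arterial markers enriched, had the smallest differences for Irgm1 (-0.60) and Irgm2 (-0.31), and Iigp1 was higher there with ATRA+agonist (2990 CPM against 2471 CPM, log2 ratio 0.27). It was the sole cluster in which a member went the other way. In the cluster led by Aqp1 and Adgrl4, the largest with 1154 and 1292 cells, Iigp1 was at 3744 and 4163 CPM. A shallow cluster led by Rflnb and Unc45b with a median of 830 UMIs per cell had the largest differences for Irgm1 (-1.67), Irgm2 (-2.24) and Iigp1 (-0.80), and its Iigp1 levels were also the lowest, at 347 and 605 CPM. The cluster led by Ccl21a, in which 5 of 6 lymphatic and 3 of 7 venous markers were enriched, had 621 CPM of the summed GBPs with ATRA+agonist and 2797 CPM with vehicle.

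**Figure D3:**
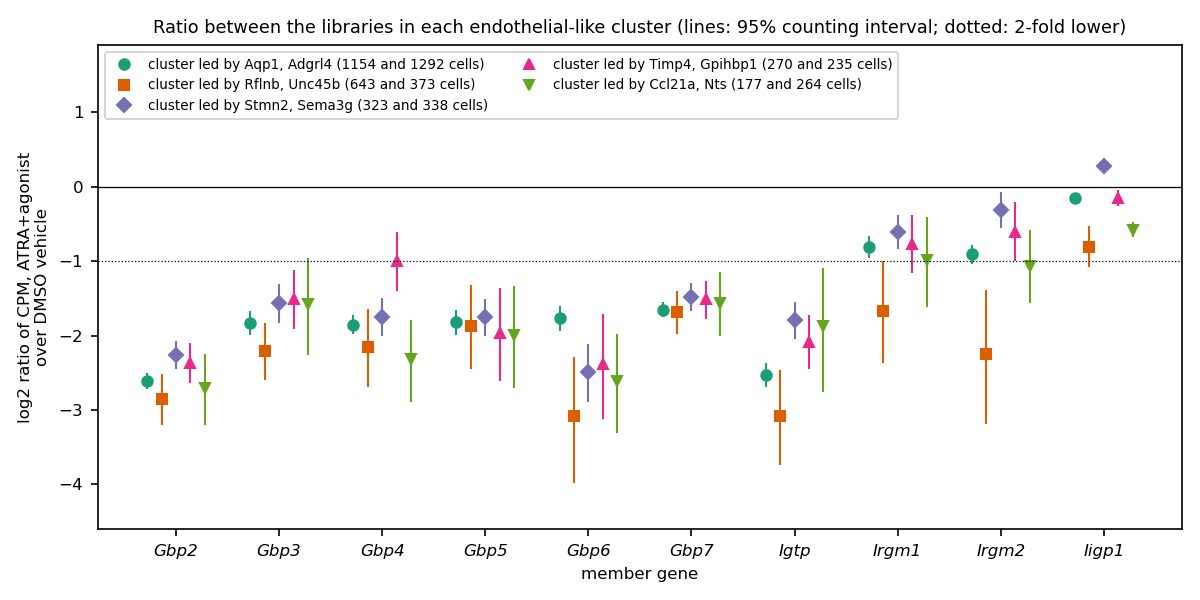
Log2 ratio of CPM, ATRA+agonist over DMSO vehicle, for each member (horizontal axis) in the 5 endothelial-like clusters (symbols, named by leading genes with their cell numbers), with 95% counting intervals as lines and 2-fold lower as the dotted line. The GBPs and Igtp lie at or below the dotted line in all 5 clusters, and Iigp1 is above 0 in the cluster led by Stmn2 and Sema3g.

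The difference was also seen as a share of cells. Each cell was thinned to 2000 UMIs, which left out 864 ATRA+agonist and 587 vehicle endothelial-like cells that were shallower. At least 3 UMIs of the 6 GBPs were found in 21.4% of 1703 ATRA+agonist cells (19.4 to 23.4) and in 64.9% of 1915 vehicle cells (62.7 to 67.0), with exact Clopper-Pearson intervals. The unthinned shares were 28.9% and 66.9%. In FAP-like cells the thinned shares were 3.86% and 5.34%, and the unthinned ones 33.0% and 31.6%. For at least 5 UMIs of all 10 members, the shares of endothelial-like cells were 60.8% with ATRA+agonist and 81.2% with vehicle (54.4% and 78.8% unthinned).

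The spread over cells differed between the libraries. After thinning, the vehicle endothelial-like cells had a median of 5 GBP UMIs, with 18.1% of cells at 0. The ATRA+agonist cells had a median of 1, with 36.4% at 0. In the vehicle library 347 cells had none, 87 had 5 and 118 had 6 GBP UMIs, and 361 cells had 12 or more GBP UMIs against 10 cells in the ATRA+agonist library. Whether the vehicle cells without and with many GBP UMIs came from different mice cannot be told apart in a pooled library. Iigp1 alone showed a smaller difference, with medians of 4 and 6 UMIs per cell.

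**Figure D4:**
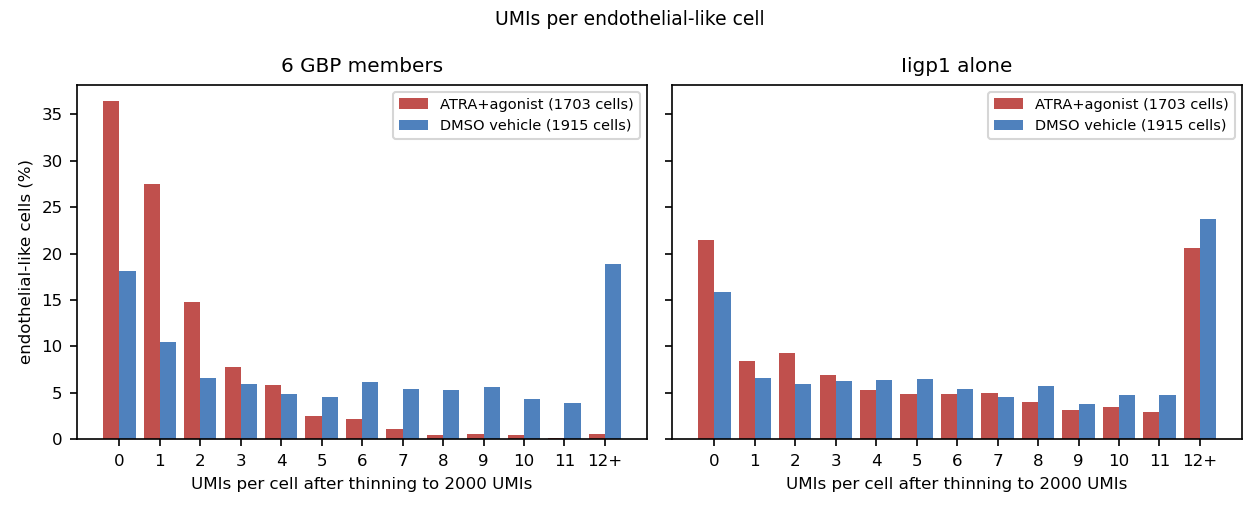
Share of endothelial-like cells (vertical axis, %) by the number of UMIs per cell after thinning every cell to 2000 UMIs (horizontal axis), for the 6 GBPs together (left) and Iigp1 (right), with 1703 ATRA+agonist cells in red and 1915 vehicle cells in blue. For the GBPs 36.4% of ATRA+agonist cells lie at 0, and 361 vehicle cells lie at 12 or more.

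The members were weakly correlated across cells in both libraries. Over the 45 pairs of members the median Pearson correlation across thinned endothelial-like cells was 0.20 in the vehicle library and 0.12 in the ATRA+agonist library. The highest pairs were Gbp2 with Gbp7 in vehicle (0.38) and Gbp2 with Gbp5 in ATRA+agonist (0.28). These are weak correlations of sparse counts at different levels, given as a description, and the libraries are not compared by them.

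FAP-like cells, which had the second highest summed level, differed less (1483 CPM with ATRA+agonist and 1988 CPM with vehicle over the 10 members, log2 ratio -0.42, -0.45 to -0.40). None of the 10 members was at least 2-fold lower, beside 5.43% of all measured genes. Iigp1 made up most of the UMIs there and was at -0.48 (-0.51 to -0.45), with Irgm2 at -0.52 (-0.63 to -0.42) and Irgm1 at -0.48 (-0.59 to -0.36). Among the GBPs, Gbp5 was at 14.3 and 21.5 CPM (-0.59, -0.85 to -0.32) and Gbp2 at 102 and 112 CPM (-0.14, -0.25 to -0.03). The intervals of Gbp3, Gbp4, Gbp6 and Igtp included 0. The 9 endothelial markers summed to 225.5 and 220.3 CPM in FAP-like cells, and their part in the GTPase values was not tested. For all members but Iigp1 the endothelial-like interval lay wholly below that of FAP-like cells. This held for 9 of 10 members against monocyte or macrophage-like cells and 8 of 9 against MuSC-like cells. It held for 5 of 9 against tenocyte-like cells, 5 of 9 against neural (glial)-like cells and 3 of 10 against smooth muscle or pericyte-like cells. The same shares over all genes were not computed, and the endothelial contrast helped to choose the members. Nothing is therefore read from these counts.

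In MuSC-like cells (414 and 531 cells) 0 of 9 members with at least 10 UMIs were at least 2-fold lower, beside 3.71% of all measured genes. The sum was at 857 and 915 CPM, a log2 ratio of -0.09 (-0.16 to -0.02). Gbp3 went the other way from endothelial-like cells. It was counted 66 times with ATRA+agonist and 40 times with vehicle, or 19.8 and 10.1 CPM, a log2 ratio of 0.98 (0.39 to 1.58). The intervals of the other GBPs measured (Gbp2, Gbp5, Gbp6 and Gbp7) included 0. The 9 endothelial markers summed to 95.2 and 109.8 CPM in MuSC-like cells, and their part in the GTPase values was not tested.

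Monocyte or macrophage-like cells (517 and 405 cells) ordered the members differently. There Iigp1 had the largest difference of the members, with 34.4 CPM under ATRA+agonist and 103 CPM under vehicle, a log2 ratio of -1.58 (-1.83 to -1.34). It was the sole member of 10 at least 2-fold lower, beside 4.04% of all measured genes. Gbp2 was at 42.5 and 52.7 CPM (-0.31, -0.58 to -0.04). Its ratio ranged from -1.46 with cells named by their own markers to 0.21 (-0.545 to 0.991) with cells thinned. The sign and size of its point value thus depended on the processing, and the thinned interval included 0. The intervals of Gbp3, Gbp4, Gbp5 and Irgm2 included 0. The 9 endothelial markers summed to 38.4 and 55.6 CPM in these cells, so that vehicle macrophage-like cells carried more endothelial RNA as well, and its part in the Iigp1 value was not tested.

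Smooth muscle or pericyte-like cells (231 and 326 cells) were lower with ATRA+agonist for all 10 members as point values, and 4 of 10 (Gbp2, Gbp4, Gbp6 and Irgm2) were at least 2-fold lower, beside 6.2% of all measured genes. Their sum was at 435 and 790 CPM, a log2 ratio of -0.86 (-1.03 to -0.69). Counts were low, with 1 and 14 UMIs of Gbp4, and the count of 4 ranged from 2 to 7 with other filters. With a mitochondrial limit of 10% the ratio of the sum was -0.45. The 9 endothelial markers were at 410 and 374 CPM in these cells, and their part in the GTPase values was not tested. Iigp1 was at 243 and 458 CPM (-0.91, -1.14 to -0.69).

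In tenocyte-like cells (164 and 505 cells) 0 of 9 members were at least 2-fold lower, beside 8.03% of all measured genes, and Iigp1 had a log2 ratio of -0.78 (-0.94 to -0.63). Endothelial markers were also lower there, at 67.0 CPM with ATRA+agonist and 138 CPM with vehicle, and their part in the GTPase values was not tested. In neural (glial)-like cells (135 and 394 cells) 1 of 9 members, Gbp5, was at least 2-fold lower (6 and 37 UMIs, with an interval from -2.77 to 0.02), beside 9.22% of all measured genes. The regulators Irgm1 (-0.43), Irgm2 (-0.62) and Igtp (-0.61) were lower there with intervals below 0, and Iigp1 at 90.7 and 111 CPM had an interval that included 0. Without doublet removal, Iigp1 had a log2 ratio of -1.25 there and the sum of the members one of -0.69, against -0.25 with removal. The 9 endothelial markers were at 53.9 and 48.2 CPM in neural (glial)-like cells, and their part in the GTPase values was not tested.

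Classes with too few cells in a library were not compared. B cell-like cells numbered 622 with ATRA+agonist and 31 with vehicle, and the ATRA+agonist cells had 291 CPM of the 10 members. Neutrophil-like cells had a Gbp2 level of 339 CPM (265 to 426) over 23 ATRA+agonist cells, above the 186 CPM (176 to 196) of endothelial-like cells. Over 153 vehicle cells it was 315 CPM, below the 1085 CPM of endothelial-like cells. In 229 myonuclei-like cells, all from the ATRA+agonist library, 48 member UMIs were counted.

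The genes that act before and beside the GTPases in endothelial-like cells were taken from lists written out with earlier results known. Ifng, the interferon-gamma gene, was counted 202 times in 65 ATRA+agonist cells and 173 times in 33 vehicle cells. Of these, 62 and 31 cells were in an unnamed cluster led by mast cell and lymphocyte genes (Cma1, Ccl5 and Nkg7), where 323 ATRA+agonist and 101 vehicle cells lay. Of the receptor genes, none of the 4 measured was at least 2-fold different. Ifngr1 was at 173 and 161 CPM, and its interval included 0. Ifngr2 was at 16.3 CPM with ATRA+agonist and 10.8 CPM with vehicle with an interval of the ratio above 0.

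The counts below stand beside the 4.15% of all measured endothelial-like genes that were at least 2-fold lower. Of 14 signaling genes 3 were at least 2-fold lower with ATRA+agonist and none was at least 2-fold higher, with a median log2 ratio of -0.29. Batf2 was at 5.94 and 55.6 CPM (-3.23, -3.71 to -2.78) and Irf8 at 48.0 and 108 CPM (-1.17, -1.35 to -0.99). Socs1, a feedback inhibitor of the pathway, was at 151 and 242 CPM (-0.68, -0.79 to -0.58).

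Of the other GBP and IRG genes 13 were measured, and 5 were at least 2-fold lower with ATRA+agonist, with a list median of -0.70. Gbp10 was counted 14 times with ATRA+agonist and 304 times with vehicle (-4.25, -5.14 to -3.48), with the uncertain split from Gbp6. Gbp2b was counted 2 and 13 times (-2.51, -5.70 to -0.36). Ifi47, another IRG, was at 57.7 and 174 CPM (-1.60, -1.75 to -1.44), and Gm4951 at 158 and 409 CPM (-1.38, -1.47 to -1.28).

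Of 15 interferon-gamma target genes measured 11 were at least 2-fold lower and the other 4 had point values below 0, with a median of -1.19. This list holds Ubd and Cd274, whose values were known when the members and lists were chosen. Nothing is therefore read from its count, or from its median beside those of other lists. Ubd, a ubiquitin-like modifier, was counted 13 times with ATRA+agonist and 1312 times with vehicle (-6.46, -7.38 to -5.69). Ciita, the regulator of MHC class II genes, was counted 3 and 99 times (-4.85, -7.15 to -3.26). Ido1, a tryptophan-degrading enzyme, was at 13.2 and 111 CPM (-3.07, -3.39 to -2.77), and Wars, the tryptophan tRNA synthetase, at 94.7 and 476 CPM (-2.33, -2.45 to -2.21). Of 20 type I interferon target genes measured only Zbp1 (-3.29, -3.68 to -2.92) and Ifit2 (-1.34, -1.46 to -1.23) were at least 2-fold lower, with a median of -0.28. Among them Rsad2, an antiviral enzyme, was at -0.75 (-0.81 to -0.69) and Ifi44 at -0.73 (-0.93 to -0.54). The GBP members had a median of -1.85 and the IRG members one of -0.84, beside 0.08 over all genes.

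**Figure D5:**
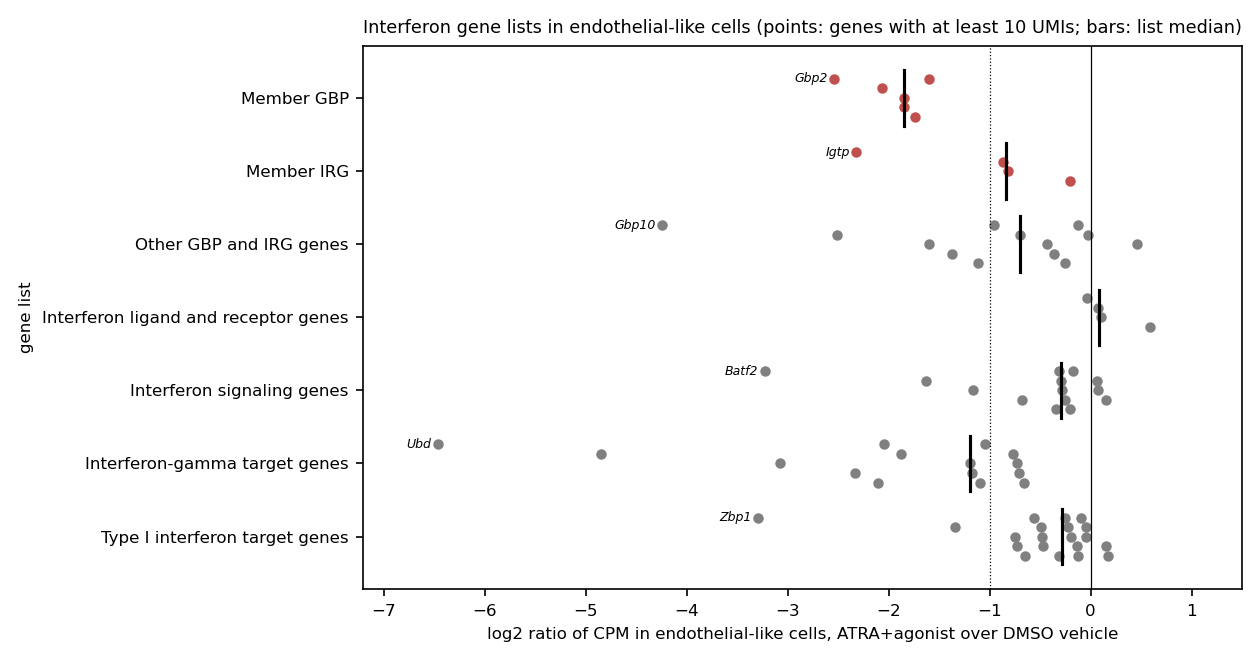
Log2 ratio of CPM in endothelial-like cells, ATRA+agonist over DMSO vehicle (horizontal axis), for genes with at least 10 UMIs in each of 7 lists (rows). Points are genes, red for the 10 members and the lowest of a list named where it is below the dotted line, black bars are list medians and the dotted line marks 2-fold lower. The interferon-gamma target genes have a median of -1.19, the type I interferon target genes one of -0.28. The lists were written with earlier results of these data known, so nothing is read from these medians beside each other.

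The pattern of the members over cell classes and libraries was compared with that of 7693 other genes over 17 units (classes of a library with at least 50 cells), which share libraries and classes. Among the genes most like the mean of the members on the log2(CPM + 10) scale were D5Ertd615e (Pearson r 0.92), Parp10 (0.91), Efnb1 (0.89), Olfr56 (0.88), Sema3g (0.88), Stox2 (0.88) and Lnx1 (0.88). Olfr56 overlaps Ifi47 on the same strand. Of these genes only D5Ertd615e was at least 2-fold lower with ATRA+agonist in endothelial-like cells, at 12.7 CPM against 54.0 CPM (-2.09, -2.43 to -1.77), and Stox2 was at 523 and 503 CPM. Among the members, Igtp (0.95) and Gbp7 (0.94) were nearest to their own mean and Irgm1 (0.72) the farthest.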

How the data were processed

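Both deposited files give whole-number UMI counts for genes and barcodes. Per the study's methods, the authors obtained them with Cell Ranger on build mm10 from 10x 3-prime libraries. The annotation release and the intron setting are not given in the sources used here. The 10 genes, the gene lists and the markers were chosen with earlier results of these data known.

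Cells with 300 to 5000 genes, under 20% mitochondrial and under 0.25% hemoglobin beta UMIs were kept, and the 7.5% with the highest doublet scores in each library were removed by a rebuilt neighbor score. Merged cells were clustered with Louvain (igraph 0.11.9, resolution 0.8) on 30 principal components without the 81 listed interferon genes. A cluster was named "-like" where at least 3 of its markers were enriched at least 2-fold and no other class had more, unless its 10 leading genes held more markers of another class or it was shallow without a leading marker of its own. UMIs were summed per library and class. With 1 library per group no test was run, and intervals cover counting error only. Genes with at least 10 UMIs in a class were measured. All members, up to 4 genes per list with the largest absolute log2 ratio and the 8 genes most like the members were to be named, of which some are not reported here. Ifng, below the count minimum in endothelial-like cells, and the unnamed clusters were added after their values were seen. The ratio code was tested on simulated data. Alternatives changed 1 choice at a time.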

Additional observations from a re-analysis of the deposited data

Results flagged for a closer look

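Gbp3 in MuSC-like cells was picked out because its direction was opposite to that in endothelial-like cells. Its log2 ratio was 0.98 in MuSC-like cells, from 66 and 40 UMIs, and -1.74 in endothelial-like cells, with counting intervals on different sides of 0. With 1 library per group the difference between the classes was not tested.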

How the results depend on the processing

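No paired analysis was possible because each group has 1 library. The 7 members at least 2-fold lower in endothelial-like cells remained 7 in number under all 13 alternatives run for that count. The summed endothelial ratio of -0.85 kept its direction and moved beyond its counting interval to -0.80 without doublet removal, -0.75 without the hemoglobin filter, -0.83 with a 10% mitochondrial limit, -0.83 with cells named by their own markers and -0.93 with median-of-ratios scaling. Added after seeing the data, it was -0.79 without the shallow cluster and -1.81 without Iigp1. The GBP sum of -1.99 moved to -1.93 without the hemoglobin filter and -2.07 with median-of-ratios scaling. Shares of endothelial-like cells with at least 5 member UMIs were 36.5% and 64.3% when thinned to 1000 UMIs, since fewer UMIs per cell can then be counted. Among values whose interval excluded 0, the point value took the other sign for Gbp2 in monocyte or macrophage-like cells and for the MuSC-like sum. Gbp2 was at 0.21 (-0.545 to 0.991) when thinned to 2000 UMIs. The MuSC-like sum was at 0.004 (-0.104 to 0.112) without Iigp1, against -0.09 with it. Both of these alternative intervals included 0. Members whose interval included 0 also took the other sign under some alternatives, among them Gbp5 in smooth muscle or pericyte-like (0.23) and tenocyte-like cells (0.43), Gbp6 (-0.29) and Gbp7 (-0.40) in neural (glial)-like cells, Gbp6 in FAP-like cells (-0.14) and Irgm2 in monocyte or macrophage-like cells (0.23). Counts of members at least 2-fold lower ranged from 2 to 7 around 4 in smooth muscle or pericyte-like, from 0 to 3 around 1 in neural (glial)-like and from 1 to 4 around 1 in monocyte or macrophage-like cells, and were 0 or 1 in FAP-like, MuSC-like and tenocyte-like cells. The causes were not tested. Counts limit the precision in classes with few cells, where Gbp4 for example had 1 and 14 UMIs in smooth muscle or pericyte-like cells.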

Other observations

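An unnamed cluster led by Sfrp5, Tenm2 and Cldn1 (85 ATRA+agonist and 120 vehicle cells) also had lower GTPase levels with ATRA+agonist. The 6 GBPs summed to 16 and 128 UMIs, or 87.1 and 358 CPM, a log2 ratio of -2.04 (-2.89 to -1.29), and Gbp4 was counted 0 and 3 times. Iigp1 was at 27.2 and 196 CPM (-2.85, -4.51 to -1.56). This cluster was singled out after its values were seen.

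In the unnamed cluster that held most Ifng-positive cells, the GBPs summed to 225 CPM with ATRA+agonist and 213 CPM with vehicle (0.07, -0.20 to 0.35). Iigp1 went the other way there, with 120 CPM over 323 ATRA+agonist cells and 16.3 CPM over 101 vehicle cells (log2 ratio 2.88, from 263 and 11 UMIs). The cells of the libraries in this cluster need not be of the same kinds.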
